A study of Mus musculus with 2 samples.

Results

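The cells described here are ovarian stroma cells with a high level of the MHC class II genes. They were chosen by UMIs (unique molecular identifiers, each standing for 1 captured RNA molecule) per 10000 UMIs of the same barcode. A stroma cell had at least 40 for the sum of Col1a1, Col1a2, Col3a1 and Dcn, the matrix genes of fibroblast-like cells. It also had less than 2 for the leukocyte genes Ptprc, Tyrobp and C1qa, less than 10 for the pericyte gene Rgs5 and less than 5 for the smooth muscle genes Myh11, Actg2 and Cnn1. Surface epithelium genes (Upk3b, Upk1b and Krt7) had to sum to less than 2 and granulosa genes (Fst, Hsd3b1, Inha and Aard) to less than 5. A class II-high cell had in addition at least 10 for the sum of Cd74, H2-Aa, H2-Ab1 and H2-Eb1. The rule found 497 cells, all in the library labelled MLT, where they were 18.8% of 2638 stroma cells (exact Clopper-Pearson 95% interval 17.4% to 20.4%). In the library labelled DEHP_MLT it found 0 of 2124 stroma cells, which allows a share of up to 0.141% (3 counts of the total). The other 2141 stroma cells labelled MLT and the 2124 labelled DEHP_MLT served as comparison cells, out of 10096 barcodes in all.

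The ovaries came from C57BL mouse pups on postnatal day 3 and were profiled with the 10x Genomics 3′ assay, 1 library per group. Melatonin (MLT) was given to the mothers of both groups from E16.5 to birth and on to the day of sampling. DEHP is a phthalate used to soften plastics. Mothers of the DEHP_MLT group received it by gavage, and those of the MLT group received DMSO instead, so melatonin is common to both groups and no group lacks it. How many pups or litters went into a library is not stated. Each group is a single library without replicates, so no test was made and every interval below covers counting error only.

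File names and labels go against each other. For the sample titled MLT the deposited table is named DEHP_MLT, and the reverse holds for the other sample. Titles were followed, the group field goes with the titles, and every statement about which library held these cells would be exchanged if the table names were right. The libraries held 5277 and 4819 barcodes with 80657690 and 117355739 UMIs, and medians of 10834 (MLT) and 13161 UMIs (DEHP_MLT). The lowest barcode had 2031 and 6923 UMIs, so the tables start at different depths. They shared 4 barcode sequences, none of a class II-high cell. Haemoglobin UMIs, which come from RNA of red cells, had a median of 4.49 per 10000 in class II-high cells, 4.25 in other stroma cells labelled MLT and 57.0 in stroma labelled DEHP_MLT.

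MHC class II molecules present peptides from outside the cell to CD4+ T cells and are made all the time by dendritic cells, B cells and macrophages. In other cells, fibroblasts among them, interferon-gamma can switch the class II genes on through JAK kinases and the class II transactivator CIITA, which binds no DNA itself but joins the RFX and NF-Y complexes on the X and Y boxes of class II promoters. The same signal raises MHC class I genes, the immunoproteasome and large families of GTPases that act on vacuoles of intracellular microbes. Type I interferons raise a partly shared set of genes without CIITA.

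Promoter sequences are shown for 5 genes on which the results below turn, to let the X and Y boxes of the class II genes be set beside the interferon elements of a GTPase and of the MHC class I light chain. Windows came from RefSeq (build GRCm38.p6) and run from 250 bases before to 50 after the start of the gene, while mm9 is the build named for the deposited tables, which hold no coordinates. Capitals mark the matches of the motifs searched on both strands, the Y box (CTGATTGG), the X box (AG, any base, AAC, any base, GATG) and the interferon-stimulated response element or ISRE (GAAA, any 2 bases, GAAA). The fourth motif searched, the gamma-activated site or GAS (TTCNNNGAA), had no match in these 5 windows.
H2-Aa, chr17:34287774-34288073, minus strand: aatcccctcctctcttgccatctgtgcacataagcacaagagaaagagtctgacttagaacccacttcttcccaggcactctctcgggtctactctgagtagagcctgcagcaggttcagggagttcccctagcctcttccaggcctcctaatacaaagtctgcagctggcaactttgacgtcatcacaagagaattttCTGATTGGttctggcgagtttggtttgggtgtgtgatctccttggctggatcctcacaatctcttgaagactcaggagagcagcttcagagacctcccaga
H2-Eb1, chr17:34305617-34305916, plus strand: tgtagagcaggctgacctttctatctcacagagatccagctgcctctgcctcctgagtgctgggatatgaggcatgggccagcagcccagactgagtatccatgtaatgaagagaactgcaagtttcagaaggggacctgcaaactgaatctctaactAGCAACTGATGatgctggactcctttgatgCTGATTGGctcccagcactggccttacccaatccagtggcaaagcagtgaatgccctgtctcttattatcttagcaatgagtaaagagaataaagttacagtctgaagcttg
H2-DMb1, chr17:34152941-34153240, plus strand: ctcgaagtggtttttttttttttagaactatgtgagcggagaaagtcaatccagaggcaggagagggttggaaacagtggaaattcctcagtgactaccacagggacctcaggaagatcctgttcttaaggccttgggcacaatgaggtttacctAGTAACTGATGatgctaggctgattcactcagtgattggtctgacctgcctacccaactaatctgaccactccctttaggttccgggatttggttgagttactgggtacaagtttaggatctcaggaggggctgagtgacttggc
Gbp2, chr3:142620413-142620712, plus strand: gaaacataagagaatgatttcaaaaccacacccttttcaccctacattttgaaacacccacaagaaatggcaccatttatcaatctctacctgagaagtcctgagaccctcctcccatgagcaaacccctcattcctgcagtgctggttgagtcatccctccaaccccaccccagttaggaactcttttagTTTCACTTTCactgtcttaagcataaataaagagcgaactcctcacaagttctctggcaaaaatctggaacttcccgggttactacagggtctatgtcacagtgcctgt
B2m, chr2:122147437-122147736, plus strand: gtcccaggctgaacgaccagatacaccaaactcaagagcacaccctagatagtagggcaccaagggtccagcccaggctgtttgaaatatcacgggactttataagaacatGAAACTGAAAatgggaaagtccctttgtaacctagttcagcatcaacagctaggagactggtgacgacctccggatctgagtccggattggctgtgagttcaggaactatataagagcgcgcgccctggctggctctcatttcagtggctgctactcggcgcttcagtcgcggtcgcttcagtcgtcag

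Of 22 class II, antigen-processing and GTPase genes taken by the naming rule, 15 had a window in the table used. The X box stood in 2 of the 15, in H2-Eb1 with its first base at -92 from the start and in H2-DMb1 at -95, and in 0.298% of all 32851 windows of the same length. The Y box stood in 5, in H2-Eb1 at -62, H2-Aa at -51, H2-D1 at -53, H2-Q7 at -16 and Canx at -178, and in 4.10% of all windows. In H2-Eb1 both boxes lie in 1 window without overlap. The ISRE stood in 3, in B2m at -139, Gbp2 at -59 and Tgtp1 at -77, and in 3.44% of all windows, and the GAS in 1, Tgtp1 at -88, and in 8.30% of all windows. A match is a description of these letters, not a shown binding site, and its absence says only that these letters are not in this window. H2-Ab1, Ciita and Iigp1 are named here without a sequence.

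The 4 class II genes chose the cells, so their values describe the choice. The summed class II level was 34.0 UMIs per 10000 at the median of the 497 cells, with 10.2 the lowest and 95.3 the highest. Other stroma cells labelled MLT had a median of 0.932 and a highest value of 9.91, and 34.0% of them (729 cells) had no class II UMI. In stroma labelled DEHP_MLT the highest value was 1.96 and 97.0% of cells (2061) had none. On a log scale the distribution in the library labelled MLT had a low stretch near the threshold, which counts over equal steps of the plain scale do not show. Of the stroma cells labelled MLT, 1725 lay below 2, 393 from 2 up to 8, 23 from 8 up to 10 and 23 from 10 up to 12, with 68 from 12 up to 20, 362 from 20 up to 60 and 44 at 60 or more. All 4 genes had a UMI in 442 class II-high cells (88.9%), 3 of the 4 in 44, 2 in 7 and 1 in 4.

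**Figure D1:**
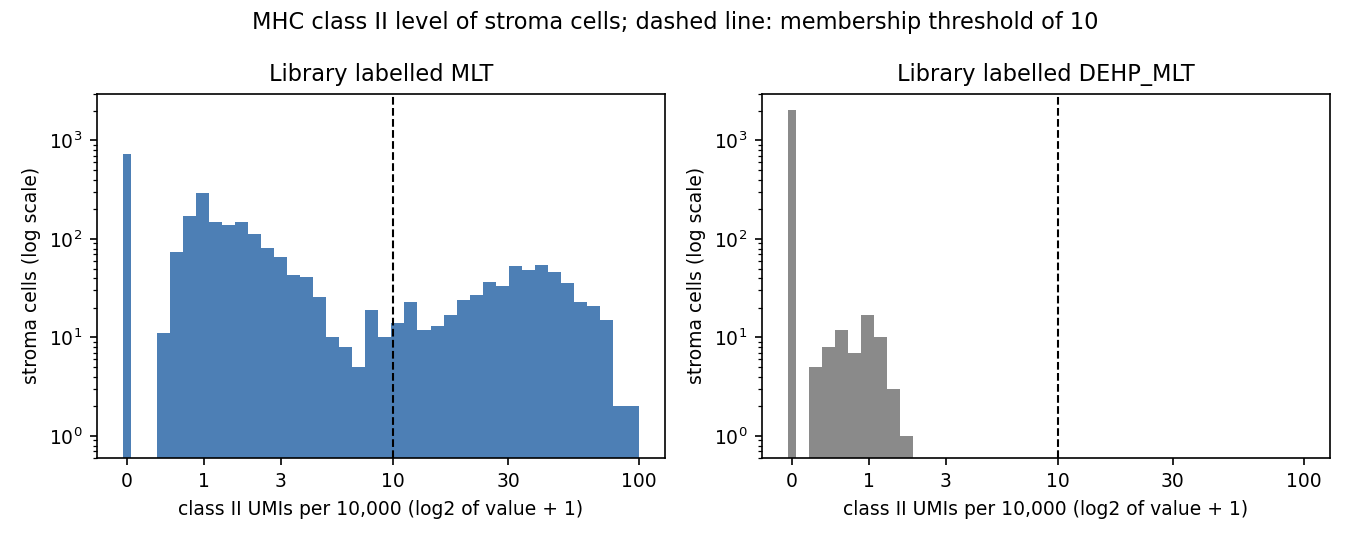
Histograms of the summed level of Cd74, H2-Aa, H2-Ab1 and H2-Eb1 per stroma cell, in UMIs per 10000 on a log axis, for each library. The y axis counts cells on a log scale and the dashed line is the membership threshold of 10. On this log axis cells labelled MLT fall into a low and a high group with a low stretch between them, and every cell labelled DEHP_MLT lies at or below 1.96.

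Summed over cells and scaled to 1000000 UMIs (CPM), H2-Ab1, the beta chain of the I-A molecule, stood at 1136 CPM in class II-high stroma (exact Poisson interval 1108 to 1165), 34.4 in other stroma labelled MLT and 0.726 in stroma labelled DEHP_MLT. H2-Aa, the I-A alpha chain, stood at 707, 19.5 and 0.45 CPM in the same order. H2-Eb1, the beta chain of I-E, stood at 762, 25.7 and 0.45 CPM. Mice of the C57BL background carry a deletion in the gene of the I-E alpha chain and do not display I-E. Cd74, the invariant chain that guards the peptide groove until the endosome, stood at 975, 31.7 and 0.726 CPM. All 4 genes thus kept the same order of the 3 groups of cells. The rule also bounds the last 2 groups, since it took the class II-high cells out of one and found none in the other.

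Low values were set beside cells that should make no class II. With every cell thinned to 5000 UMIs, H2-Ab1 was found in 98.9% of class II-high cells (455 cells, 42 shallower ones left out) and in 15.7% of other stroma cells (1985 cells, 156 left out). Before thinning these shares were 98.6% and 29.5%, at median depths of 10624 and 10526 UMIs. In erythroid cells of the same library the thinned share was 28.8% (52 cells, median depth 11834 before thinning) and in germ cells 19.2% (182 cells, median 5891). The share in other stroma cells labelled MLT therefore lay below that of cells that should lack the gene, and it is not read as expression. Of those erythroid and germ cells 10.7% and 10.2% were themselves above the class II threshold, and some other stroma cells had more class II together with Ciita, as given at the end. In stroma labelled DEHP_MLT the share was 0.330%.

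Beyond the class II genes, the genes at least 2-fold higher or lower in class II-high stroma than in its neighbours were counted. Among the 3653 genes with at least 50 CPM in either kind of stroma labelled MLT, 157 were at least 2-fold higher in class II-high cells (4.3%) and 14 at least 2-fold lower (0.383%), with log2 ratios taken after adding 1 CPM and a median of -0.05. Over all 20996 genes present in both tables the counts were 428 higher (2.04%) and 116 lower (0.552%), around a median of -0.02. Both sets of genes leave out those of the rule. A gene can meet the 50 CPM minimum only through the group where it is high. The cells were also chosen within this same contrast, so these counts are given as a description from which nothing is read.

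The label of the cells was checked against genes outside the rule, after the rule's own stroma genes, whose level the choice of cells bounds from below in both groups. Col1a1 stood at 1838 CPM in class II-high cells against 1619 in other stroma labelled MLT, Col1a2 at 2723 against 2428 and Col3a1 at 2384 against 2377, while the proteoglycan gene Dcn was lower, at 912 against 1593 CPM (log2 ratio -0.80). Of 19 further stroma identity genes, such as the transcription factors Tcf21, Wt1 and Nr2f2 and the receptor Pdgfra, none was 2-fold higher and 1 was 2-fold lower (Postn), with a median log2 ratio of -0.25. The highest ratios of the list were those of Wt1, at 268 against 198 CPM (0.43), and Tcf21, at 254 against 193 CPM (0.39). Lum, a matrix proteoglycan, stood at 141 against 256 CPM (-0.86), Mfap4 at 819 against 995 CPM (-0.28) and the collagen gene Col6a1 at 623 against 741 CPM (-0.25). The markers Iigp1, Ifit3 and Ifi47 were given together with the rule, which was chosen with earlier results of these data known. They were all higher, as given below, but do not check the label.

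Marker genes of leukocytes were scarce in class II-high and in other stroma cells. The 1 CPM added draws log2 ratios of such scarce genes towards 0. On this measure none of 11 macrophage genes was 2-fold apart. Together they stood at 35.2 CPM in class II-high cells and 24.7 CPM in other stroma labelled MLT. Lyz2, the lysozyme of macrophages, stood at 9.79 CPM (7.35 to 12.8) against 5.52 CPM (4.61 to 6.56), with intervals apart. Ctss stood at 3.26 against 1.63 CPM, Cd68 at 1.27 against 2.35 CPM and Adgre1 at 0.544 against 0.556 CPM. Of the dendritic and B cell markers 8 were measured, which summed to 0.906 against 0.685 CPM, with 4 of them at 0 in class II-high cells. The 8 measured T, NK and innate lymphoid genes summed to 4.35 against 4.71 CPM, with 2 at 0. Ptprc, Tyrobp and C1qa were held low by the rule itself, and 461 of the 497 cells had no UMI of any of the 3. With 1 CPM added, no list of endothelial, mural, surface, granulosa, germ cell or neutrophil markers had a gene 2-fold higher either. The scarce surface gene Msln stood at 1.99 against 0.685 CPM (log2 ratio 0.83). Doublets were not called here. Leaving out the top 5% of barcodes by UMIs took away 1 class II-high cell, so it says little of doublets among them. Class II-high and other cells labelled MLT were alike in depth (medians 10624 and 10526 UMIs), genes per cell (3660 and 3601) and mitochondrial share (2.86% and 3.13%).

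CIITA and the machinery that loads class II molecules accompanied the class II genes. Ciita stood at 106 CPM (98.0 to 115) in class II-high stroma, 2.23 in other stroma labelled MLT and 0.104 (3 UMIs) in stroma labelled DEHP_MLT, a log2 ratio of 5.06 between the first 2. H2-DMa, whose product exchanges peptides on class II molecules, stood at 325, 10.2 and 2.52 CPM (4.86). H2-DMb1, its partner chain, stood at 88.3, 3.42 and 0.138 CPM (4.33). H2-DMb2 and H2-Eb2, named with Rfx5, Lgmn, H2-Oa and H2-Ob after their values were seen, were scarce, both at 3.08 against 0.30 CPM, and H2-DMb1 and H2-DMb2 are near-identical copies among which UMIs may be misplaced. With 1 CPM added, the other 13 of 18 measured genes of the list were less than 2-fold apart. Among them were the DNA-binding partners of CIITA, Rfx5 at 11.8 against 9.85 CPM, Rfxap at 35.0 against 39.5 and Nfyb at 45.7 against 57.7. Of the proteases of the class II pathway, Lgmn stood at 28.6 against 29.0 CPM. Ctss was scarce, at 3.26 against 1.63 CPM, and its log2 ratio was 0.70 only because of the added 1 CPM. H2-Oa and H2-Ob, which restrain H2-DM in B cells, stood at 0.363 and 0.181 CPM.

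Thinned to equal depth, a Ciita UMI was found in 37.4% of class II-high cells (interval 32.9% to 42.0%), 1.01% of other stroma cells labelled MLT and 3.85% of erythroid cells (2 of 52). Ciita RNA was thus seen in part of the class II-high cells at this depth, and a cell without a UMI is not shown to lack it.

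The interferon-inducible GTPases were higher as a family. All 17 measured genes were at least 2-fold higher in class II-high than in other stroma labelled MLT, with a median log2 ratio of 4.28, and their sum was 5651 against 248 CPM. Iigp1, an immunity-related GTPase that damages parasite vacuoles, stood at 1600.5 CPM in class II-high cells, 62.2 in other stroma labelled MLT and 42.4 in stroma labelled DEHP_MLT (4.66). Ifi47 of the same family stood at 420, 15.5 and 12.4 CPM (4.67). Gbp2, a guanylate-binding protein, stood at 673, 33.6 and 11.1 CPM (4.28), and Gbp8 at 94.1, 2.87 and 0.242 CPM (4.62). The lowest ratios belonged to scarce genes, Tgtp1 at 2.72 against 0.514 CPM (1.30) and Gvin1 at 6.16 against 0.0856 CPM (2.72). Tgtp1 and Tgtp2, and several Gbp genes, are close copies whose UMIs may be divided between them in ways that cannot be checked here.

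GTPase genes were no part of the rule, and most class II-high cells had them at a high level. The sum of GTPase UMIs was 51.7 per 10000 at the median of class II-high cells, with 0 the lowest and 186 the highest, against a median of 1.24 in other stroma labelled MLT. At least 20 per 10000 was reached by 425 class II-high cells (85.5%) and by 49 other stroma cells labelled MLT (2.29%), and 7 class II-high cells lay below 5.

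**Figure D2:**
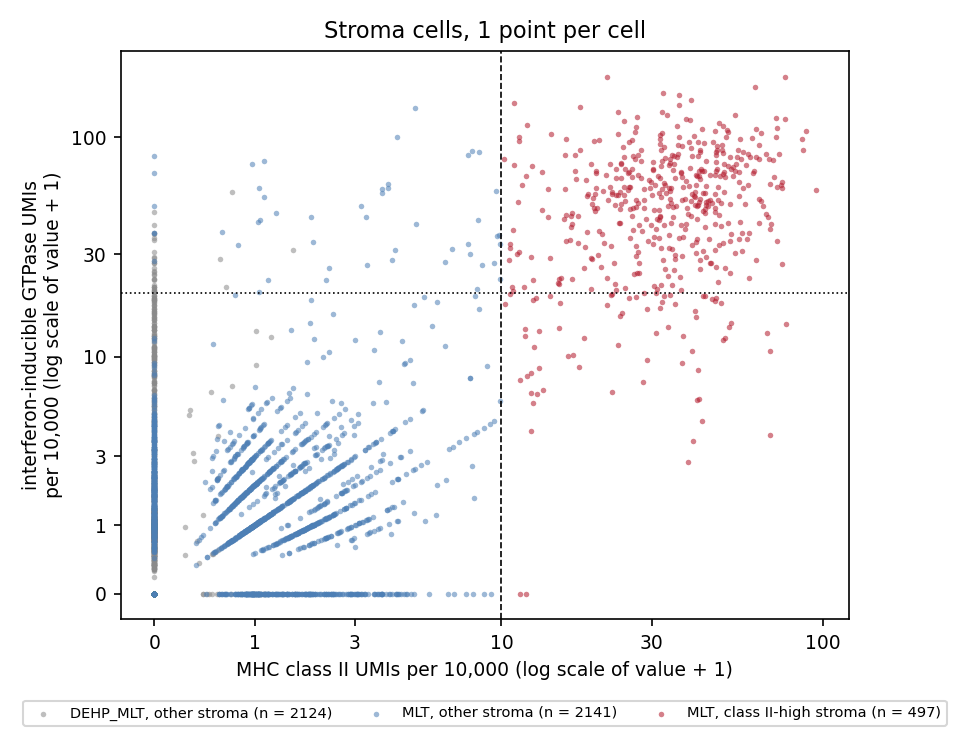
Each point is a stroma cell, with its summed class II level on the x axis and its summed interferon-inducible GTPase level on the y axis, both in UMIs per 10000 on log axes of value + 1. Dashed and dotted lines are at 10 and 20. Class II-high cells labelled MLT (red) fill the upper right, 85.5% of them above the dotted line, while cells labelled DEHP_MLT (grey) above that line have a median class II level of 0.

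MHC class I genes and the machinery that feeds them were also higher. Of 24 measured genes, 21 were at least 2-fold higher, with a median log2 ratio of 3.20 and a sum of 10536 against 2030 CPM. B2m, the light chain shared by class I molecules, stood at 2104, 190.01 and 137 CPM in class II-high, other MLT and DEHP_MLT stroma (log2 ratio 3.46 between the first 2). The heavy chain gene H2-D1 stood at 1022, 49.6 and 8.34 CPM (4.34), H2-K1 at 1176, 66.2 and 14.2 CPM (4.13) and the non-classical H2-Q7 at 415, 17.6 and 1.94 CPM (4.48). Psmb8, a catalytic subunit of the immunoproteasome, stood at 489, 24.9 and 6.43 CPM (4.24). The class I genes resemble each other, so the division of UMIs among H2-D1, H2-K1, H2-Q4, H2-Q6 and H2-Q7 is uncertain. The 3 genes of the list below 2-fold were general folding factors of the endoplasmic reticulum, Calr at 1177 against 729 CPM (0.69), Pdia3 at 451 against 315 (0.52) and Canx at 266 against 207 (0.36). B2m was near universal in class II-high cells, with a UMI in 99.8% of thinned cells against 55.8% of other stroma cells.

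Antiviral genes that type I interferon is best known to raise were higher too. Of 39 measured genes 38 were at least 2-fold higher, with a median log2 ratio of 3.40. Ifit3, which with its relatives binds viral RNA, stood at 684, 18.4 and 18.1 CPM (5.14), and Ifit1 at 342, 8.73 and 15.6 CPM (5.14). Parp14, an ADP-ribosyltransferase, stood at 252, 6.76 and 4.57 CPM (5.02). Ifi44 stood at 158, 4.07 and 5.22 CPM (4.97). Isg15, a ubiquitin-like modifier, stood at 265, 7.71 and 32.4 CPM (4.93). Ifitm3, a membrane protein that blocks virus entry, stood at 2326, 244 and 477 CPM (3.25), and Bst2, which tethers virus at the cell surface, at 1391, 120 and 149 CPM (3.52). The exception was Ifitm2, at 871 against 977 CPM (-0.17). Ifit3 and Ifit3b are close copies, so the 191 against 5.01 CPM of Ifit3b (4.99) may in part be UMIs of Ifit3. Among the 15 genes with the highest ratios were also Ifi203 at 313 against 9.29 CPM (4.93) and Mndal at 227 against 6.85 CPM (4.86), which encode related nuclear proteins of the HIN-200 family.

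Interferon receptors, kinases and transcription factors were higher in part. Of 21 genes, 10 were at least 2-fold higher, with a median of 0.36. Irf7 stood at 208, 9.29 and 29.4 CPM (4.34) and Batf2 at 34.8, 1.58 and 0.0346 CPM (3.79). The kinase Jak1 stood at 238 against 296 CPM (-0.31), the factor Irf3 at 46.4 against 49.6 (-0.09) and the feedback inhibitor Socs3 at 342 against 288 (0.25). The receptor genes, named for their role after their values were seen, were less than 2-fold apart. Ifngr1 stood at 36.1 against 38.1 CPM and Ifngr2 at 70.3 against 68.7, Ifnar1 at 42.2 against 39.9 and Ifnar2 at 106 against 82.9. RNA of receptors for both kinds of interferon was thus measured in class II-high and in other stroma cells.

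None of 9 interferon ligand genes was among the genes present in both tables. Ifng, the gene of interferon-gamma, was a row of the table labelled MLT only. It had 298 UMIs in 46 of the 5277 barcodes of that library, with 0 in class II-high stroma, which allows up to 0.544 CPM (3 counts over the group), and 5 in 5 other stroma cells. Leukocytes, taken as barcodes with at least 10 UMIs per 10000 of Ptprc, Tyrobp and C1qa, held 244 of these UMIs in 17 of their 159 barcodes. Of the 19 barcodes with at least 3 Ifng UMIs, which held 268 in all, 19 also had Nkg7 or Gzma, genes of cytotoxic lymphocytes, and 17 had a UMI of Cd3d, Cd3e, Cd3g or Trac, genes of the T cell receptor complex. A link between these barcodes and the class II-high stroma was not tested.

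Chemokines, co-stimulatory genes and complement were higher in part. Of 13 chemokines 6 were at least 2-fold higher. Cxcl10, which draws T cells through CXCR3, stood at 641, 26.2 and 24.5 CPM (4.56) and had a UMI in 261 of the 497 cells. Cxcl9, a ligand of the same receptor, stood at 70.9, 4.32 and 0.104 CPM (3.76), but 5 cells held 66.8% of its UMIs and 44 cells had any. Ccl2, which draws monocytes, stood at 33.4 against 1.498 CPM (3.78), with 64.7% of its UMIs in 5 cells. The stromal chemokine Cxcl12 was not higher, at 154 against 183 CPM (-0.25). After thinning, Cxcl9 was found in 5.27% of class II-high and 2.07% of other stroma cells and Cxcl10 in 41.8% and 10.0%, while 19.2% of erythroid cells had a Cxcl10 UMI and none of 52 had a Cxcl9 UMI.

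Of 13 co-stimulatory, inhibitory and adhesion genes 7 were at least 2-fold higher. Tnfsf10, the death ligand TRAIL, stood at 39.9 against 1.24 CPM (4.19), Cd274, the checkpoint ligand PD-L1, at 48.9 against 2.40 (3.88), Vcam1, an adhesion molecule for leukocytes, at 27.0 against 1.54 (3.46) and Lgals9 at 199.7 against 20.5 (3.22). The classical co-stimulators, of which Cd86 and Cd40 were named after their values were seen, were scarce, with Cd80 at 0 UMIs in class II-high cells and 0.0856 CPM in other stroma, Cd86 at 0.725 against 0.128 CPM and Cd40 at 1.63 against 1.54 CPM. Class II-high stroma thus carried the RNA of class II and of PD-L1 with little or none of Cd80 and Cd86. Among complement genes 7 of 11 outside the rule were at least 2-fold higher. Serping1, the inhibitor of the first component, stood at 910 against 134 CPM (2.75), C2 at 85.2 against 5.48 (3.73) and C4b at 23.6 against 0.856 (3.73). Of 18 cell death genes 6 were 2-fold higher, among them the inflammatory caspase Casp4 at 32.3 against 2.40 CPM (3.29) and the necroptosis effector Mlkl at 25.4 against 1.97 (3.15), while Bax stood at 91.7 against 88.6 and Bcl2 at 78.7 against 85.5.

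**Figure D3:**
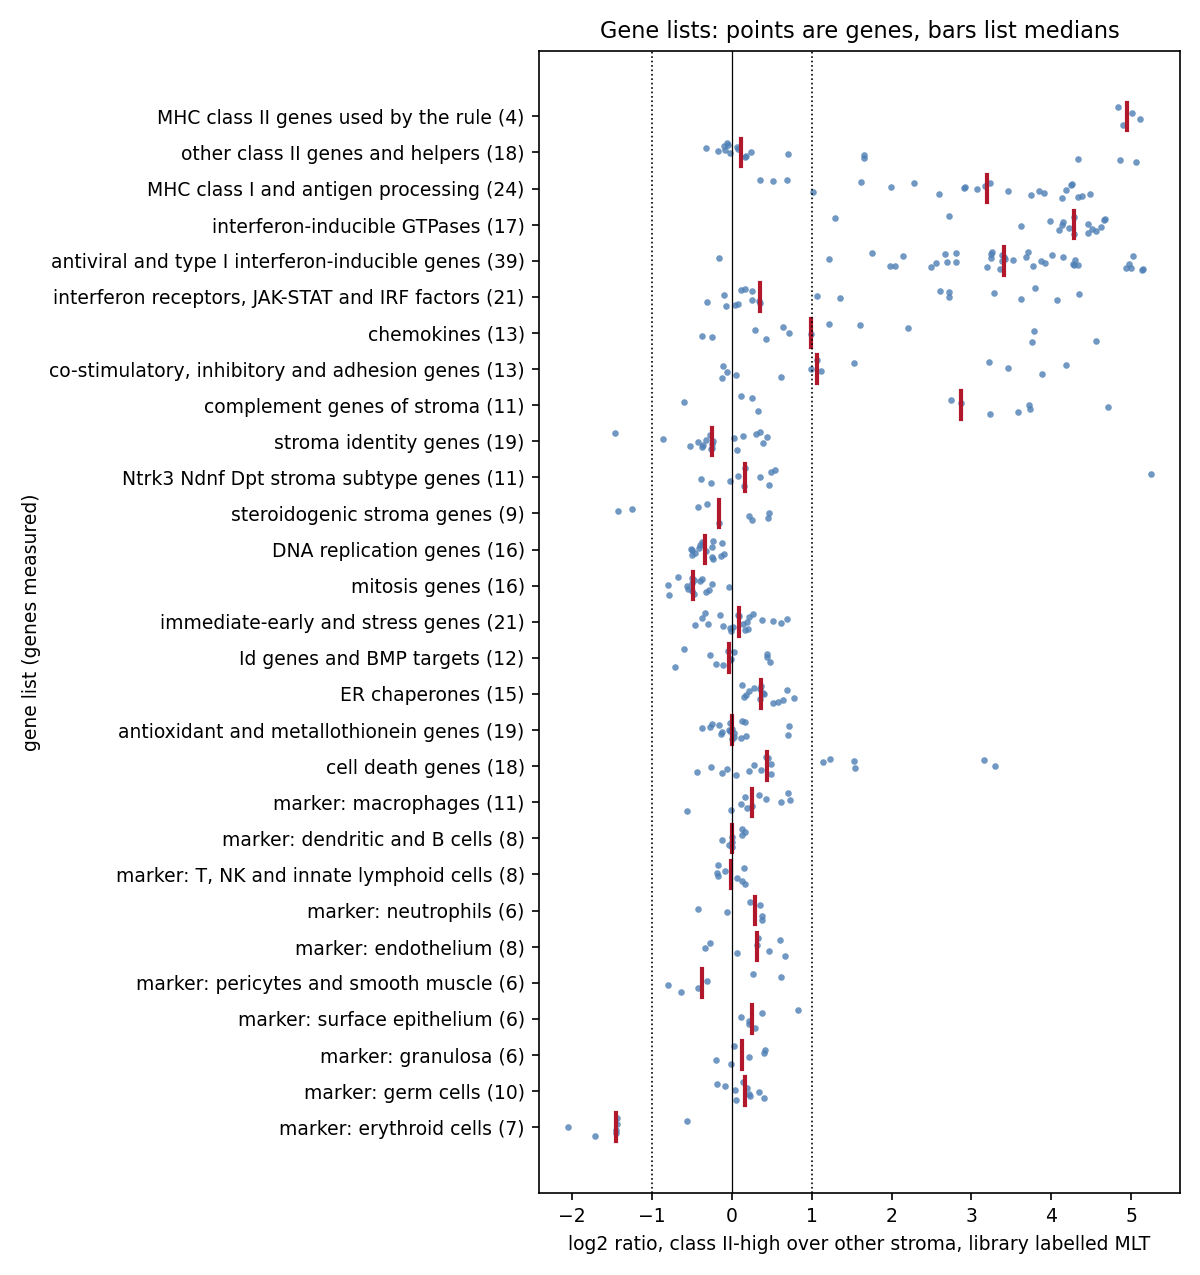
Log2 ratios of class II-high over other stroma labelled MLT by gene list, with each gene as a point and the median of each list as a red bar (1 CPM added to both levels). The number in brackets is the number of genes measured, and dotted lines are at 2-fold. GTPase, class I and antiviral lists lie to the right, and stroma, cell cycle and leukocyte marker lists lie near 0.

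Some of the genes with the highest ratios came from few cells. Saa3, an acute-phase serum amyloid gene, had the highest ratio of all, at 134 CPM against 0.899 (6.15), but its UMIs were found in 20 of 497 cells and 5 cells held 80.7% of them. C3, the central complement component, stood at 92.1 against 2.57 CPM (4.71), with 40.9% of its UMIs in 5 cells and a UMI in 66. Serpina3f, a serine protease inhibitor, stood at 179 against 3.42 CPM (5.35) and was spread more widely, over 203 cells with 11.1% of UMIs in the top 5. Ly6a, the surface antigen Sca-1 of stem and stromal progenitor cells, stood at 425 against 10.2 CPM (5.24) with a UMI in 381 cells. For comparison, 5 cells are 1.01% of the group and held 3.24% of H2-Ab1 UMIs. Olfr56, named as an olfactory receptor gene, stood at 73.6 against 1.93 CPM (4.67). Its annotated locus overlaps that of Ifi47 on the same strand in the GENCODE vM21 annotation, so its UMIs cannot be told apart from those of Ifi47 with certainty.

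**Figure D4:**
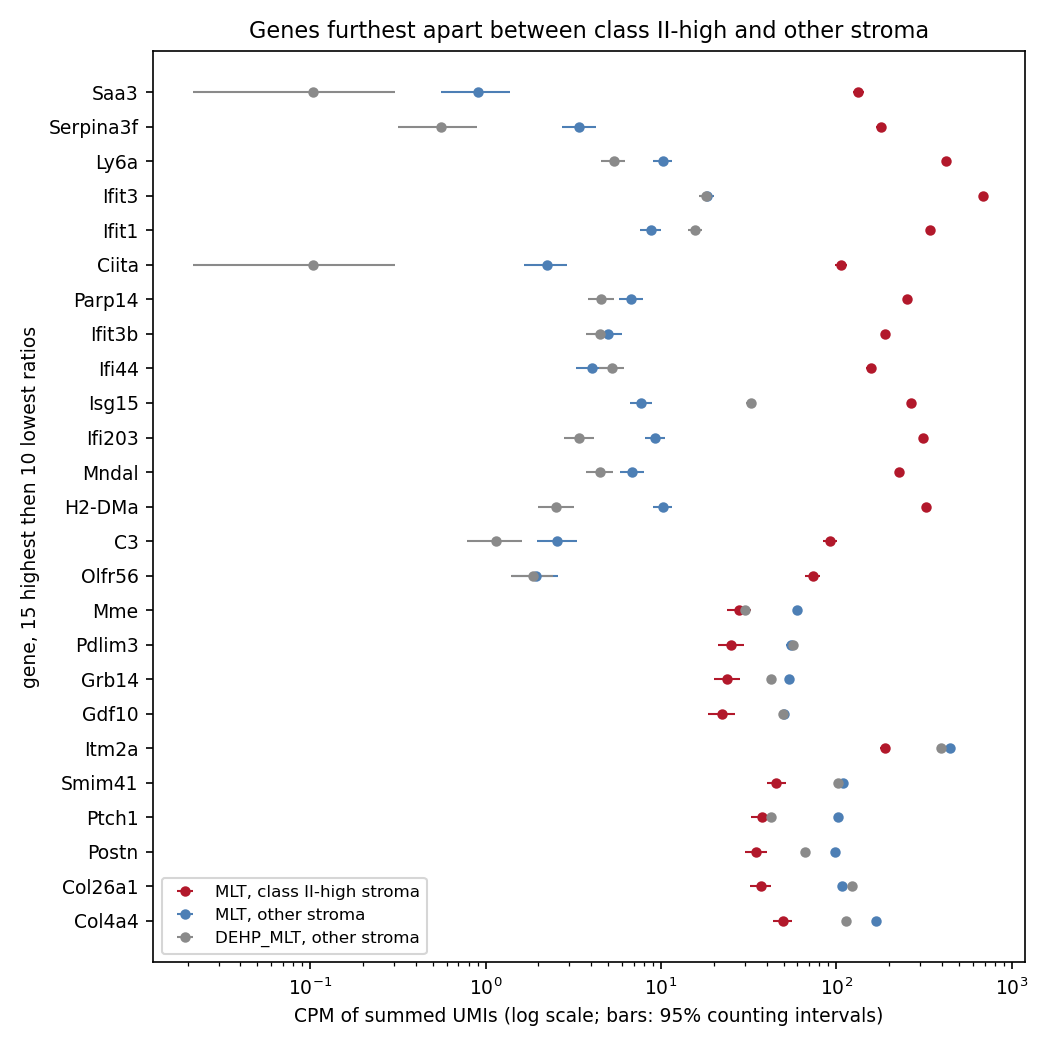
Levels of the 15 genes with the highest and the 10 with the lowest ratios, in CPM of summed UMIs on a log axis with exact Poisson 95% intervals. Red is class II-high stroma, blue other stroma labelled MLT and grey stroma labelled DEHP_MLT. Isg15 lies higher in grey than in blue, 32.4 against 7.71 CPM, and Col4a4, at the bottom, lies lowest in red.

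The genes lower in class II-high stroma were few and less far apart. Col4a4, a chain of basement membrane collagen, stood at 49.5 CPM (43.8 to 55.7) against 169 in other stroma labelled MLT and 113 in stroma labelled DEHP_MLT, a log2 ratio of -1.75. Col26a1 stood at 37.0, 107 and 122 CPM (-1.51) and Postn, the matricellular protein periostin, at 35.0, 98.6 and 66.0 CPM (-1.47). Ptch1, receptor and target of Hedgehog signalling, stood at 37.5, 102 and 42.1 CPM (-1.42), and Gli1, another Hedgehog target, at 16.0, 39.5 and 23.5 CPM (-1.26). Both were the only 2-fold lower genes among 9 measured steroidogenic stroma genes outside the rule, in which Nr5a1, the steroidogenic factor, stood at 37.9 against 27.2 CPM (0.46). Itm2a stood at 189 against 442 CPM (-1.22), Smim41 at 45.5 against 109 (-1.25), Gdf10, a BMP family ligand, at 22.3 against 50.1 (-1.13), Grb14, an adaptor of the insulin receptor, at 23.9 against 53.6 (-1.13), Pdlim3 at 25.2 against 54.9 (-1.09) and Mme, the peptidase neprilysin, at 27.9 against 60.01 (-1.08). Shares of cells were taken for 3 of these genes. After thinning, Col4a4 was found in 14.3% of class II-high and 41.8% of other stroma cells, Postn in 12.1% and 31.1% and Ptch1 in 14.3% and 30.1%.

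Cell cycle and stress genes stayed within 2-fold. All 16 replication genes were below 2-fold with a median of -0.34, and all 16 mitosis genes with a median of -0.49. Mki67, a proliferation marker, stood at 150 against 259 CPM (-0.79) and Top2a at 231 against 320 CPM (-0.47). Cells with at least 10 mitosis gene UMIs per 10000 were 17.1% of class II-high stroma (85 cells, 13.9% to 20.7%) and 17.9% of other stroma labelled MLT (384 cells, 16.3% to 19.6%), with 12 and 61 cells near that threshold. The lower CPM thus came with intervals of shares that overlap. Immediate-early genes had a median of 0.09 over 21 genes, with Fos at 1332 against 1341 CPM and Jun at 2470 against 2157. Antioxidant genes had a median of 0.00 over 19 genes, Id genes and BMP targets of -0.03 over 12 with Id1 at 48.8 against 80.3 CPM, and endoplasmic reticulum chaperones of 0.37 over 15. None of these lists had a gene 2-fold apart. Erythroid genes were 2-fold lower in 6 of 7, with a median of -1.45, but with the 1 class II-high and 4 other stroma cells of at least 100 haemoglobin UMIs per 10000 left out, an alternative chosen after seeing the data, the median was 0.072.

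Among class II-high cells the class II level itself ranged widely, and other genes were set beside it in 3 groups of 166, 165 and 166 cells (low, middle and high) whose class II levels ran from 10.2 to 26.8, 26.8 to 41.6 and 41.6 to 95.3 per 10000. Class I and antigen processing genes summed to 7988, 10413 and 13161 CPM from the low to the high group. H2-D1 stood at 627, 1017 and 1415 CPM. GTPases summed to 4970, 5720 and 6248 CPM and antiviral genes to 9429, 11459 and 12692 CPM. Ciita stood at 86.4, 88.8 and 144 CPM, Iigp1 at 1551, 1613 and 1637 CPM and Ly6a at 278, 415 and 578 CPM. Chemokines as a group showed no such order, at 997, 1037 and 950 CPM, and Cxcl10 was lowest in the high group at 532 CPM. Cxcl9 stood at 22.3, 47.0 and 143 CPM and Saa3 at 11.1, 144 and 243 CPM, both carried by few cells. Replication genes summed to 994, 920 and 718 CPM. The median depth of the 3 groups was 10618, 10959 and 10315 UMIs.

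The genes most like the class II sum were sought by Spearman correlation over the 455 class II-high cells of at least 5000 UMIs, thinned to that number, among 3398 genes. All cells come from 1 library and share its depth after thinning, and the values are a description. H2-K1 had the highest rho at 0.49, followed by H2-D1 at 0.44, B2m at 0.43, H2-Q7 and H2-DMa at 0.32, Ifitm3 at 0.29, Psmb8 at 0.26 and H2-Q4, Plac8 and Psmb9 at 0.25. Of these 10 genes 7 are class I or antigen processing genes. The summed class I list had a rho of 0.56, the antiviral list 0.25, the GTPase list 0.18 and the chemokine list 0.02, beside a median of 0.00 over all genes. Within class II-high stroma the class II level was thus ordered with class I more closely than with GTPases, by these values, although both lists set these cells apart from other stroma.

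To see how class II-high cells were spread over the stroma, stroma cells labelled MLT were clustered without 496 genes. These were the genes at least 2-fold higher in class II-high cells, the immune lists, haemoglobin and mitochondrial genes. The clusters were made from the same cells, so their shares are a description. Genes less than 2-fold higher stayed in, such as Gpx3, at 49.7 against 30.2 CPM (0.70). The part of such genes in the clusters was not tested. Class II-high cells were found in every one of 9 clusters. In 6 of the clusters their share lay between 10.4% and 16.3%. Cluster 1, led by the contractile genes Lmod1 and Myocd, had 27.8% (62 of 223 cells), and cluster 5, led by Col14a1, Ntrk3 and Ndnf, 11.6% (45 of 388). Cluster 3 stood apart, with 154 of 186 cells (82.8%, interval 76.6% to 87.9%), and was led by Tnip1, an inhibitor of NF-kappaB signalling, Fjx1, Gpx3, Phlda1, Fhl2 and Lrrn3. It held 154 of the 497 class II-high cells. Cluster 9, with 27.9% (29 of 104 cells), was led by Limch1, Cd93, Tm4sf1, Col18a1, Cgn and Cldn5, among them genes of endothelium (Cd93 and Cldn5) and of epithelial junctions (Cgn), and had a median of 2712 UMIs against 9842 to 16490 in the others. Whether it holds mixed barcodes was not tested. Clusters 6, 7 and 8, led by replication, histone and mitosis genes, had 10.4%, 11.2% and 16.3%. The clusters keep their numbers here, since no stroma subtype markers other than those of the Ntrk3, Ndnf and Dpt subtype were listed.

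**Figure D5:**
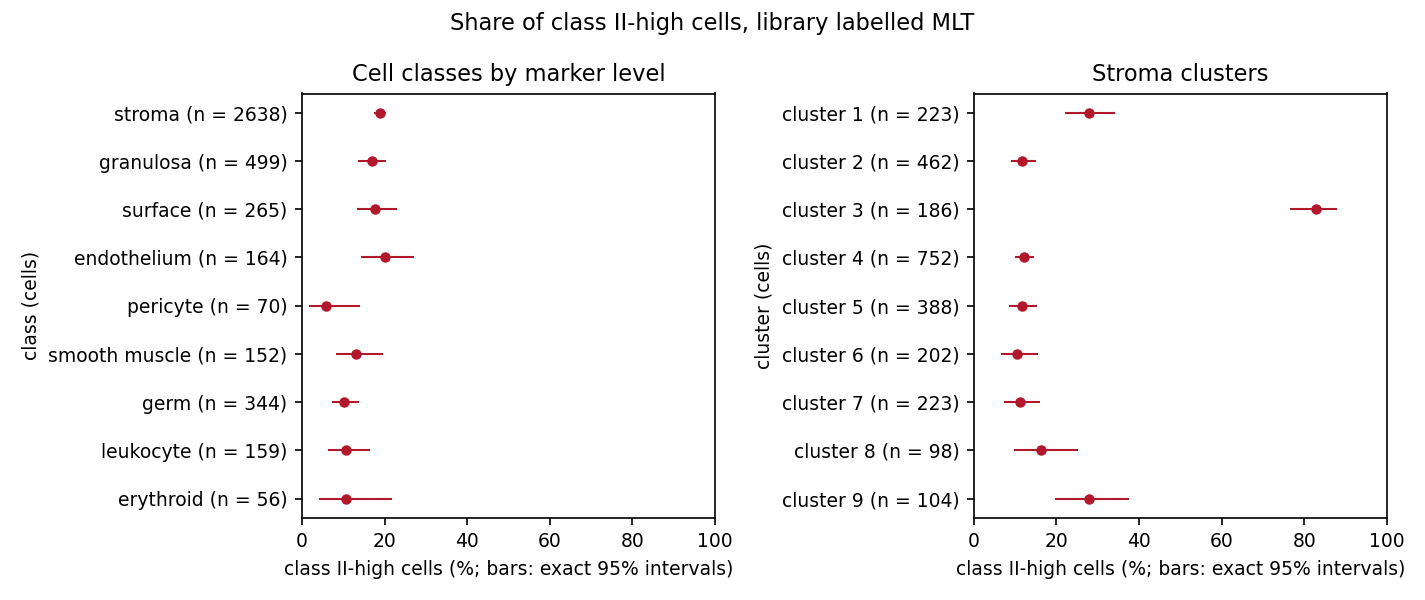
Share of class II-high cells, in percent with exact 95% intervals, library labelled MLT. Cell classes taken by marker level are on the left and the 9 stroma clusters on the right. The clusters were made without the genes at least 2-fold higher in class II-high cells, and genes less far apart stayed in. Shares lie between 5.71% and 20.1% in the classes, and cluster 3 stands apart at 82.8%.

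Class II-high cells were compared with the other cells of their cluster in the 8 clusters with at least 20 of them. H2-Ab1, which the rule sets high in every cluster, ran from 405 to 1328 CPM in them. Iigp1, outside the rule, ran from 511 to 2083 CPM, with the lowest values of both genes in the shallow cluster 9. Col4a4, Col26a1, Ptch1 and Itm2a were lower in class II-high than in other cells within each of these 8 clusters, but not always with intervals apart. The intervals overlapped for Ptch1 in clusters 3, 4, 5 and 9, for Col26a1 in clusters 1 and 9 and for Col4a4 in cluster 3. They also overlapped for Itm2a in cluster 9, at 129 against 139 CPM. Grb14, another of the 10 lowest genes, was lower in 7 of the 8 and went the other way in cluster 3, at 21.6 against 13.9 CPM (0.61). The log2 ratio of Col4a4 ran from -3.89 in cluster 5 to -0.77 in cluster 2. Saa3 was not spread in this way. It stood at 905 CPM in the 25 class II-high cells of cluster 7, at 138 CPM in cluster 3 and at 0 in clusters 1 and 5. Cxcl9 likewise stood at 296 CPM in cluster 7, 103 CPM in cluster 3 and 12.9 CPM or less in clusters 1, 2 and 4. A single class II-high cell held 305 of the 737 Saa3 UMIs, and a single cell 109 of the 391 Cxcl9 UMIs. These cluster values can thus rest on single cells and are not read as traits of the clusters. The Ntrk3, Ndnf and Dpt stroma subtype, counted as cells with at least 5 UMIs per 10000 of these 3 genes, made up 5.63% of class II-high stroma (28 cells, 3.78% to 8.04%) and 4.67% of other stroma (100 cells, 3.82% to 5.65%), with 22 and 61 cells near the threshold. Of its 11 genes only Ly6a was 2-fold higher.

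The class II-high state was not limited to stroma in the library labelled MLT. With the same class II threshold, 17.2% of granulosa or surface epithelium cells were class II-high (131 of 761, interval 14.6% to 20.1%). The share was 16.8% in granulosa (84 of 499), 17.7% in surface epithelium (47 of 265) and 20.1% in endothelium (33 of 164, 14.3% to 27.1%). It was 13.2% in smooth muscle (20 of 152), 5.71% in pericytes (4 of 70, 1.58% to 14.0%), 10.2% in germ cells (35 of 344), 10.7% in leukocytes (17 of 159) and 10.7% in erythroid cells (6 of 56). The interval of the stroma share overlapped those of granulosa, surface, endothelium, smooth muscle and erythroid cells (erythroid 4.03% to 21.9%). These shares therefore cannot be ordered at this depth. Class II-high germ cells had a median of 3061 UMIs against 6934 in the other germ cells, and class II-high erythroid cells 5966 against 12241, and the part of free RNA or of mixed barcodes in these was not tested. In the library labelled DEHP_MLT class II-high barcodes were 3 of 84 leukocytes and 1 of 755 erythroid cells, and none in the other classes.

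Class II-high granulosa or surface cells were chosen by the same class II threshold and without stroma genes. In them 369 of 20996 genes were at least 2-fold higher than in other cells of that class (1.76%), around a median of -0.04. All 17 GTPases were 2-fold higher there (median 3.74), as were 21 of 24 class I genes (2.76) and 37 of 39 antiviral genes (2.94). Ciita gave a log2 ratio of 4.73 there and 5.06 in stroma, Iigp1 4.22 and 4.66, and Ifit3 4.77 and 5.14. Larger ratios in stroma belonged to Saa3 (6.15 against 2.74), Serpina3f (5.35 against 2.38), Mndal (4.86 against 2.43), Ifi203 (4.93 against 3.32) and Ly6a (5.24 against 4.14). In endothelium Serpina3f was also far apart, at 380 against 3.24 CPM (6.49), while C3 (-0.57) and Saa3 (0.42) were not. Cxcl9 was further apart in endothelium, at 1636 against 7.13 CPM (7.65), than in stroma (3.76). Of the 10 genes with the lowest ratios in stroma, Smim41 was also 2-fold lower in class II-high granulosa or surface cells, at 8.46 against 20.1 CPM (-1.16). Grb14 stood at 22.4 against 33.4 CPM there (-0.56), Itm2a at 41.4 against 53.6 (-0.36) and Ptch1 at 61.4 against 68.6 (-0.16). Col4a4 was scarce there, at 6.95 against 5.44 CPM (0.30), as was Postn, at 5.14 against 6.96 (-0.38). These differences between cell types have no replicate behind them and were not tested.

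Between the libraries the comparison is of stroma without class II-high cells, since the library labelled DEHP_MLT has none. Among 20996 genes outside the rule, 152 were 2-fold lower in stroma labelled DEHP_MLT (0.724%) and 107 higher (0.51%). Their median log2 ratio of DEHP_MLT over MLT was -0.07. All 4 class II genes of the rule were 2-fold lower, with a median of -4.22 that ran from -5.32 to 0 over the alternatives. The rule bounds these 4 genes in the cells compared, so their ratios describe the choice and nothing is read from them. Of the class I list 8 of 24 genes were 2-fold lower, with a median of -0.59. H2-D1 stood at 8.34 against 49.6 CPM (-2.44) and H2-Q7 at 1.94 against 17.6 CPM (-2.66). Of 17 GTPases 4 were 2-fold lower (median -0.45), among them Gbp2 at 11.1 against 33.6 CPM (-1.52). The antiviral list went the other way, with 7 of 39 genes 2-fold higher, 1 lower and a median of 0.34. Isg15 stood at 32.4 against 7.71 CPM (1.94) and Irf7, of the signalling list, at 29.4 against 9.29 CPM (1.56). With a class II threshold of 20 the antiviral median was 0.036. Markers of other cells were also higher in stroma labelled DEHP_MLT, with 6 of 6 neutrophil genes (median 1.99) and 7 of 7 erythroid genes (median 3.30) past 2-fold, and their part in these differences was not tested. Erythroid and germ cells labelled MLT also held class II UMIs, as given above for H2-Ab1. After thinning, H2-D1 was found in 20.4% of other stroma cells labelled MLT, 26.9% of erythroid and 29.1% of germ cells. Gbp2 and Psmb8 also had lower shares in other stroma than in both, B2m had a higher share, and Iigp1 and Ifi47 lay between. Erythroid and germ cells are not shown to lack these genes. For H2-D1 the interval of erythroid cells (15.6% to 41.0%) also overlapped that of other stroma (18.6% to 22.2%). Whether the lower H2-D1 and Gbp2 levels in stroma labelled DEHP_MLT are lower expression was not tested and cannot be told from these shares. The part of free RNA in the differences between the libraries was not tested.

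A few stroma cells labelled DEHP_MLT had high interferon-inducible genes without class II. At least 20 GTPase UMIs per 10000 were reached by 33 of 2124 cells (1.55%), whose median class II level was 0. Their antiviral genes summed to 11241 CPM, beside 11208 CPM in class II-high stroma labelled MLT. Isg15 stood at 280 and 265 CPM, Irf7 at 298 and 208 CPM and Rsad2, the antiviral enzyme viperin, which was named after its values were seen, at 163 and 217 CPM. Class I genes summed to 3050 CPM beside 10536, with H2-D1 at 44.8 beside 1022 CPM and H2-K1 at 22.4 beside 1176 CPM. Ciita was at 1 UMI in these 33 cells (2.24 CPM, 0.0567 to 12.5) beside 106 CPM, and H2-Ab1 at 2 UMIs (4.48 CPM) beside 1136 CPM. The 49 stroma cells labelled MLT that reached the same GTPase level below the class II threshold had class II genes at 429 CPM, class I at 6240 CPM, Ciita at 17.9 CPM and antiviral genes at 7105 CPM, between class II-high and other stroma in each. Outside the class II-high cells, the summed antiviral level of those cells was thus seen in the 33 cells labelled DEHP_MLT. The 49 cells labelled MLT lay below it. These 33 and 49 cells were picked by their GTPase level, so their GTPase values describe the choice, and each set comes from 1 library. How far the same choice set their other interferon-inducible genes was not tested.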

How the data were processed

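The deposited tables hold UMI counts per gene and barcode, whole numbers that the authors had already restricted to chosen barcodes. Cell Ranger, Seurat 4.2.0 and the build mm9 are named in the submitters' processing notes, and their settings are not given in the sources used here. Cells were chosen and counts summed with Python 3.11.15, numpy 2.4.6, scipy 1.17.1 and pandas 2.3.3, clusters were made with scanpy 1.11.5 and igraph 0.11.9 (1500 variable genes, 20 components, 15 neighbours, resolution 0.5), and figures with matplotlib 3.10.9. The members and the gene lists were chosen with earlier results of these data known.

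Levels are summed counts per 1000000 UMIs (CPM) of all genes in the table of that library. They were compared for the 21018 genes present in both tables. Ratios are log2 after adding 1 CPM, and a gene was counted as higher or lower from 2-fold on. Named genes were the 15 highest and 10 lowest ratios at 50 CPM or more with intervals apart, the genes of the rule, in each list the 3 highest, 2 lowest and 2 most abundant, Iigp1, Ifit3, Ifi47, H2-Ab1, Ifng and Ciita, and the 10 genes most correlated with class II. Genes outside this rule are marked as such, except those that only choose cells, lead clusters or stand for a list or a copy. Intervals are exact Poisson or Clopper-Pearson 95% intervals and cover counting error only. No test was made, since each group is 1 library and cells are not replicates. The calculations were tested on simulated data. No doublet caller was run, and as an alternative the top 5% of barcodes by UMIs were left out. The other cell classes took barcodes with at least 10 UMIs per 10000 of granulosa, endothelial, pericyte or leukocyte genes, 5 of surface or smooth muscle genes, 3 of germ cell genes (Ddx4, Dazl and Sycp3) or 500 of haemoglobin genes, and 1 class II-high stroma cell was also in the erythroid class. Alternatives covered the thresholds, the CPM minimum, the added CPM, the scaling, the weight per cell, depth and the comparison cells. Values of some genes that the naming rule takes are not reported here.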

Additional observations from a re-analysis of the deposited data

How the results depend on the processing

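The share of class II-high stroma labelled MLT was 21.04% with a class II threshold of 5 and 15.4% with 20, beside 18.8%. The 157 higher and 14 lower genes became 276 and 52 at 10 CPM or more and 428 and 116 without a filter. The lower genes numbered 7 with equal weight per cell and 9 with haemoglobin-rich cells left out, an alternative chosen after seeing the data, under which the erythroid list turned from -1.45 to 0.072. The GTPase median of 4.28 was 4.57 with 0.1 CPM and 3.82 with 5 CPM added, 4.35 and 3.68 with class II thresholds of 5 and 20, 4.83 against cells with no class II UMI, 4.15 with equal weight per cell and 4.24 with a stroma threshold of 20. The GTPase median of DEHP_MLT over MLT, -0.45, was -0.89 with 0.1 CPM and -0.28 with 5 CPM added, -0.28 and -1.03 with class II thresholds of 5 and 20, -0.22 against cells with no class II UMI, -0.64 with equal weight, -0.35 with median-of-ratios scaling, -0.39 with a floor of 6923 UMIs in both libraries and -0.35 with a stroma threshold of 80. The cause of these moves was not tested. Of 960 further comparisons of single genes and lists 742 moved little, 217 moved by more and 1 turned. The ratio of Saa3 ran from 3.08 to 7.06 and that of C3 from 3.53 to 5.11. Gdf10, Grb14, Pdlim3 and Mme came within 2-fold under some settings, at -0.75, -0.97, -0.95 and -0.82. No paired analysis was possible because each group is 1 library. Depth limits what can be said of single cells, and library, litter and treatment cannot be told apart.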
